A study of Mus musculus with 16 samples.

Results

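The enzymes described here act between acetyl-CoA and squalene epoxide, in the front of cholesterol synthesis. They are *Acat2*, *Hmgcs1*, *Mvk*, *Pmvk*, *Mvd*, *Idi1*, *Fdps*, *Fdft1* and *Sqle*, taken by symbol from the count table. These are 9 of the 52143 genes listed, and all 9 were among the 11324 genes expressed highly enough to be tested. Liver RNA came from 16 male C57BL6/J mice, 4 in each of 4 groups. Mice were 6 weeks old when they were put on chow or on a high-fat diet (HFD) with 60% fat, and they stayed on it for 12 weeks. Over that time they received a subcutaneous injection every 2 weeks. The groups Chow and HFD received saline. The groups Chow/FGFR4 KD and HFD/FGFR4 KD received siRNA at 3 mg/kg directed at *Fgfr4*, the receptor through which the gut hormone FGF15 restrains bile acid synthesis in hepatocytes. The siRNA was conjugated to N-acetylgalactosamine, a sugar that the asialoglycoprotein receptor of hepatocytes takes up. No control siRNA was given, so an effect of siRNA as such and an effect of the loss of FGFR4 cannot be told apart.

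Cholesterol synthesis starts in the cytosol, where acetyl-CoA is built up to HMG-CoA, reduced to mevalonate and phosphorylated and decarboxylated to the isoprene unit isopentenyl diphosphate. Isoprene units are then joined to farnesyl diphosphate, which either leaves for prenylated proteins, dolichol and ubiquinone or is paired to squalene, the first intermediate committed to sterols. The genes of this route are classic targets of the transcription factor SREBP2, which is released from the endoplasmic reticulum when membrane cholesterol is low. In the liver, the cholesterol made this way is exported in lipoproteins or turned into bile acids, a conversion that starts with the enzyme *Cyp7a1*.

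Promoter windows show what regulatory sequence these genes share. They were taken from RefSeq (GRCm38.p6), each with 250 bases before and 50 bases after the annotated start, and were held for 6 of the 9 genes, with 2 windows for *Pmvk*. *Fdps*, *Fdft1* and *Sqle* had no entry in the table used. Both strands were searched for the SREBP element TCACNCCAC, the CCAAT box and the GC box GGGCGG, and no matches overlapped in these windows. The SREBP element occurred in the *Hmgcs1* window only, starting 137 bases before the RefSeq start of that window, which lies upstream of the gene start given with the levels, and in 1.24% of 32851 windows of mouse genes. A CCAAT box occurred in 5 of the 6 genes (all but *Acat2*) and in 37.4% of all windows. The GC box also occurred in 5 of the 6 (all but *Pmvk*) and in 35.7% of all windows. All 10 enzymes after squalene epoxide that had a window held both a CCAAT box and a GC box, and none held the SREBP element in this form. A match is a description of letters and not a site shown to be bound, and a window without a match says nothing about the factor. The windows of *Hmgcs1* (chr13:119690101-119690400, plus strand), which held every motif searched, of *Idi1* (chr13:8885356-8885655, plus strand), the enzyme with the smallest p in the comparison on HFD, and of *Mvk* (chr5:114444019-114444318, plus strand), which held 5 CCAAT boxes, are printed 5′ to 3′ with the motifs in capitals. A motif on the opposite strand appears as its reverse complement (ATTGG or CCGCCC).
Hmgcs1: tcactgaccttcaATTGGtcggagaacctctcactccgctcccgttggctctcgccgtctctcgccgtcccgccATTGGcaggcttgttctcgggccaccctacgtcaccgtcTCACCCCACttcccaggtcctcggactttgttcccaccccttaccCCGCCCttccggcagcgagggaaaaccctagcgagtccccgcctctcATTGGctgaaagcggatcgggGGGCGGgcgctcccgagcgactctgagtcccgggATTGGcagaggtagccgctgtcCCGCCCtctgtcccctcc
Idi1: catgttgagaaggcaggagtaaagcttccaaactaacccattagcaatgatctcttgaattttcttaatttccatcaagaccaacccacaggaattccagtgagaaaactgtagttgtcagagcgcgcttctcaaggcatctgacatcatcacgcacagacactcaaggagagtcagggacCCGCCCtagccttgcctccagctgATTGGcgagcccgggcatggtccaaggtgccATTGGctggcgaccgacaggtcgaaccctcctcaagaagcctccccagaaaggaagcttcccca
Mvk: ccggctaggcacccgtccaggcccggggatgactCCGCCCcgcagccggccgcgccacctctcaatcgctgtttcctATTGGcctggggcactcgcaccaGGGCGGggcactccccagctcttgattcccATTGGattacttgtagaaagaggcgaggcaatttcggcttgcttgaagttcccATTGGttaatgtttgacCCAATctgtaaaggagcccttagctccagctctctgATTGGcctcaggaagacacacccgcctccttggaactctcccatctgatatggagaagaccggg

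Levels are given in CPM, a library's counts scaled to a common total with TMM factors, which corrects for library size and for genes that take up a large share of a library, with libraries in the order of replicates 1 to 4. A gene was called changed where limma-voom, fitted over all 11324 genes, gave p under 0.05 together with an adjusted p (Benjamini-Hochberg) under 0.25, which are the limits the study used. Differences are log2 fold changes with their standard error (SE). Total counts ranged from 3445949 to 5976449 per library. The knockdown (KD) was visible in every library. *Fgfr4* was at 27.8, 25.7, 36.2 and 28.8 CPM in Chow and at 5.93, 6.15, 4.22 and 2.75 CPM after siRNA on that diet. Its HFD libraries had 30.01, 28.5, 21.7 and 22.3 CPM, and those of HFD/FGFR4 KD 2.81, 2.43, 5.29 and 4.39 CPM, so all 8 KD libraries lay below all 8 others. HFD/FGFR4 KD 1 stood apart from its group. On the first principal component (46.1% of the variance of the 500 most variable genes) HFD/FGFR4 KD 1 scored -6.33, among the chow libraries (-23.2 to -4.84) and away from the other HFD/FGFR4 KD libraries (16.7 to 20.6). HFD/FGFR4 KD 1 also had 22.3% of its counts on the single gene Gm42418, against 13.7% to 16.2% in the rest of its group. The HFD libraries fell into pairs, HFD 2 and HFD 4 at 5.97 and 9.64 and HFD 1 and HFD 3 at 25.7 and 30.4. HFD 2 was the lowest of its group in all 9 enzymes. For the 9 enzymes, calls that change without HFD 2 or HFD/FGFR4 KD 1 are given with and without that library. Log2 changes without it are given for some enzymes only. For all other genes, calls are given from all 16 libraries only.

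FGFR4 KD on HFD went with higher mRNA of most steps of the route. All 9 enzymes had a higher fitted level in HFD/FGFR4 KD than in HFD, and 6 of the 9 were called higher (*Hmgcs1*, *Pmvk*, *Idi1*, *Fdps*, *Fdft1* and *Sqle*), where 1.50% of all genes tested were. The median log2 change was 0.80, against 0.0036 over all genes. At the stricter adjusted p under 0.05, *Idi1* alone was called higher, as were 0.124% of all genes. For 5 enzymes (*Pmvk*, *Idi1*, *Fdps*, *Fdft1* and *Sqle*) every HFD/FGFR4 KD library lay above every HFD library, which held for 3.16% of all genes. With scaling by library totals in place of TMM, *Idi1* and *Sqle* were the only enzymes called. The study had named *Idi1* from these libraries, so its call is not independent evidence. In whole liver, a change in the number of cells of a type and a change in RNA per cell cannot be told apart. The steps are described in the order of the pathway.

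**Figure D1:**
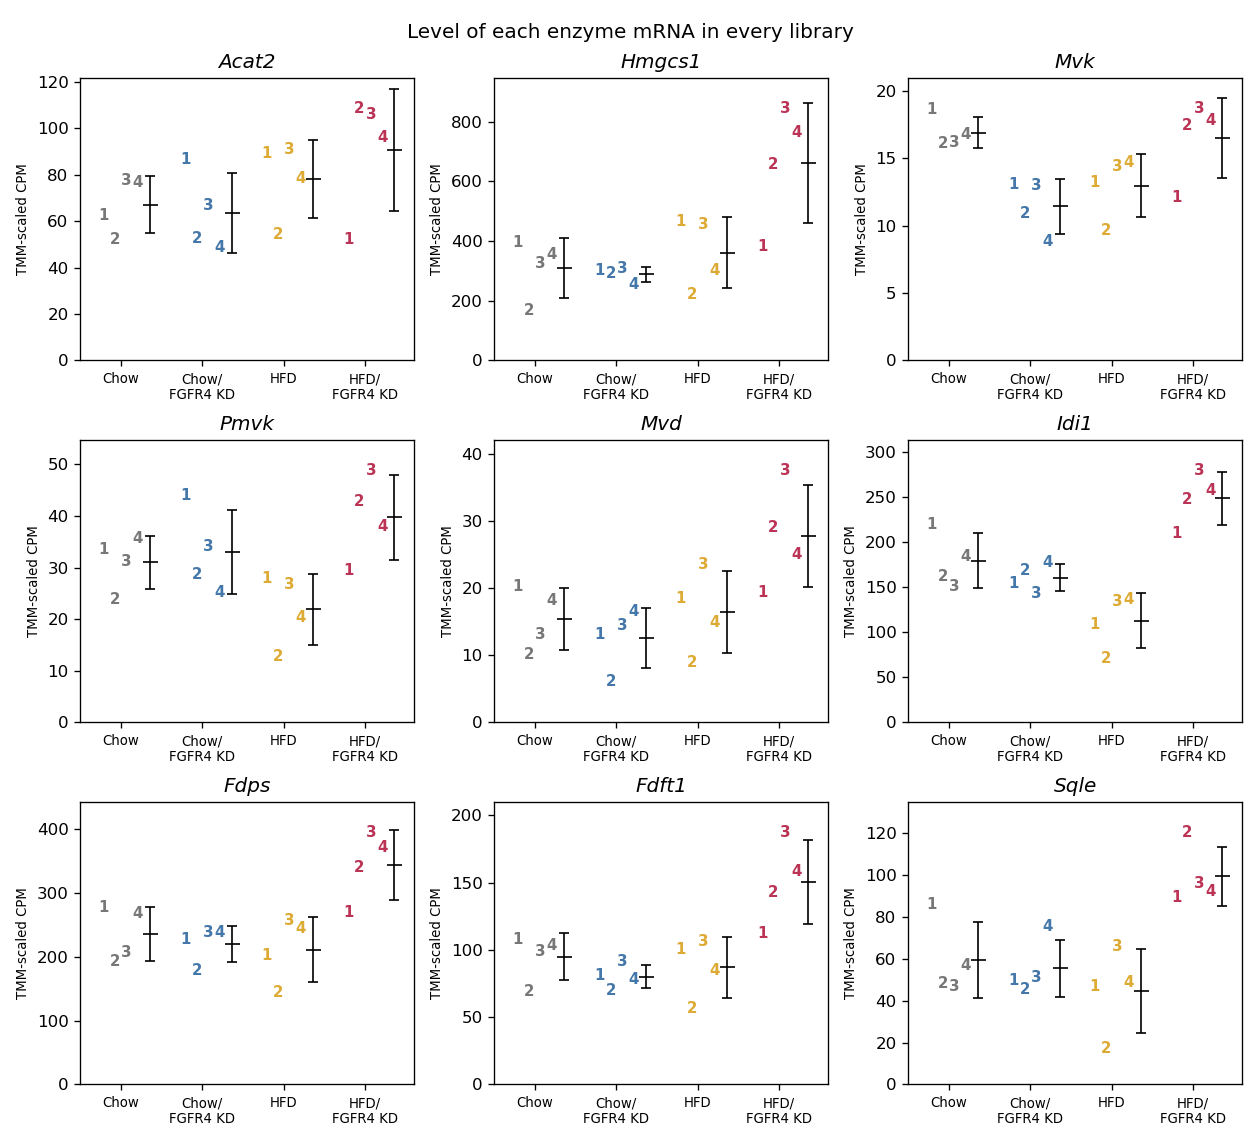
Level of each enzyme mRNA (TMM-scaled CPM, linear axis from 0) by group. Each digit is a library, drawn as its replicate number, and bars are mean ± SD (n = 4). Replicate 2 of HFD and replicate 1 of HFD/FGFR4 KD are the lowest of their groups in all 9 panels.

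*Acat2* encodes the cytosolic acetoacetyl-CoA thiolase, which joins a pair of acetyl-CoA molecules (chromosome 17, from 12942890 to 12960747 on the minus strand in GRCm38). The 4 Chow libraries had 62.5, 52.1, 77.5 and 76.7 CPM and those of Chow/FGFR4 KD 86.5, 52.5, 66.6 and 48.5 CPM. The HFD libraries had 89.2, 54.1, 91.0 and 78.2 CPM, and those of HFD/FGFR4 KD 52.2, 108.5, 106 and 96.2 CPM. The groups overlapped, since HFD/FGFR4 KD 1 was below every HFD library and the other KD libraries above them. No call was made for KD on HFD (log2 change 0.19, SE 0.232, adjusted p = 0.822; 95% interval -0.30 to 0.68). *Acat2* was the enzyme with the smallest change here. Of its 31-base words, 43.8% also occur in transcripts of the neighbouring copy *Acat3* on the same chromosome, so counts between them are uncertain. *Acat3* itself had a log2 change of 0.15 (SE 0.0915, adjusted p = 0.602).

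*Hmgcs1* encodes the cytosolic HMG-CoA synthase (chromosome 13, from 119690379 to 119708260, plus strand). In Chow it was at 394, 167, 326 and 353 CPM, and with KD on that diet at 302.5, 289.8, 309 and 253 CPM. In HFD it was at 464, 222, 454 and 301 CPM, and in HFD/FGFR4 KD at 381, 658, 843 and 763 CPM. HFD/FGFR4 KD 2 to 4 were above every other library of the study, while HFD/FGFR4 KD 1 lay within the range of HFD. The change was 1.84-fold (log2 change 0.88, SE 0.284, adjusted p = 0.234). This call was lost when any library of either group other than HFD/FGFR4 KD 1 was left out (adjusted p from 0.139 to 0.472 over the libraries left out).

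*Mvk* encodes mevalonate kinase, the first phosphorylation of mevalonate (chromosome 5, from 114444269 to 114460591, plus strand). Levels on chow were 18.6, 16.1, 16.2 and 16.75 CPM after saline and 13.0, 10.9, 13.0 and 8.79 CPM after siRNA. Levels on HFD were 13.2, 9.61, 14.4 and 14.7 CPM after saline and 12.1, 17.4, 18.7 and 17.8 CPM after siRNA. All Chow libraries were above all libraries of Chow/FGFR4 KD and of HFD, and HFD/FGFR4 KD 2 to 4 were above 3 of the 4 Chow libraries. KD on HFD was not called (log2 change 0.36, SE 0.160, adjusted p = 0.418). These values rest on 32 to 113 counts per library, the lowest depth of the group beside *Mvd*.

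*Pmvk* encodes phosphomevalonate kinase, the next step (chromosome 3, from 89454541 to 89469013, plus strand). The 4 Chow libraries had 33.5, 23.9, 31.1 and 35.6 CPM and those of Chow/FGFR4 KD 44.1, 28.7, 34.1 and 25.3 CPM. The HFD libraries had 27.85, 12.9, 26.7 and 20.3 CPM, and those of HFD/FGFR4 KD 29.4, 42.8, 48.8 and 37.95 CPM. The HFD and HFD/FGFR4 KD libraries did not overlap, and HFD 2 was the lowest library of the study. The change was 1.85-fold (log2 change 0.89, SE 0.228, adjusted p = 0.116). The call was lost without HFD/FGFR4 KD 3 or without HFD/FGFR4 KD 4 (adjusted p from 0.115 to 0.325 over the libraries left out). None of its 31-base words occurs in transcripts of another gene.

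*Mvd* encodes mevalonate diphosphate decarboxylase, which releases isopentenyl diphosphate (chromosome 8, from 122433601 to 122443422, minus strand). In Chow it was at 20.2, 10.1, 13.1 and 18.2 CPM, and with KD on that diet at 13.0, 6.15, 14.5 and 16.5 CPM. In HFD it was at 18.5, 8.96, 23.5 and 14.9 CPM, and in HFD/FGFR4 KD at 19.4, 29.1, 37.55 and 25.04 CPM. HFD/FGFR4 KD 1 lay below HFD 3, and the other KD libraries were above every HFD library. The change missed the threshold although its 95% interval, 0.19 to 1.41, lay above 0 (log2 change 0.80, SE 0.289, adjusted p = 0.303). With 27 to 227 counts per library, *Mvd* had the largest SE of the route apart from *Sqle*.

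*Idi1* encodes isopentenyl diphosphate isomerase, which provides the reactive dimethylallyl form of the isoprene unit (chromosome 13, from 8885501 to 8892451, plus strand). Levels on chow were 219.8, 162, 150.5 and 184 CPM after saline and 155, 168, 143 and 177 CPM after siRNA. Levels on HFD were 109, 70.7, 135 and 136 CPM after saline and 209, 248, 279 and 257.5 CPM after siRNA. All 4 HFD libraries were below all 12 other libraries, and the lowest HFD/FGFR4 KD library was above every HFD and every Chow/FGFR4 KD library. The change was 2.27-fold (log2 change 1.18, SE 0.173, adjusted p = 0.00741), and the call was kept without each library in turn (adjusted p from 0.00574 to 0.0326). Of its 31-base words, 27.1% occur in other transcripts, with 18.4% in Gm13502. The liver levels of its paralog *Idi2* were 0 in 15 of the 16 libraries and 1 count in HFD/FGFR4 KD 3.

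*Fdps* encodes farnesyl diphosphate synthase, which joins isoprene units to the branch point of the route (chromosome 3, from 89093588 to 89101959, minus strand). The 4 Chow libraries had 278, 194, 207 and 268 CPM and those of Chow/FGFR4 KD 227, 179, 238 and 238 CPM. The HFD libraries had 202, 143.5, 257 and 244 CPM, and those of HFD/FGFR4 KD 269, 340.4, 395 and 371 CPM. The HFD and HFD/FGFR4 KD libraries did not overlap, but the lowest KD library was only slightly above HFD 3. The change was 1.65-fold (log2 change 0.72, SE 0.176, adjusted p = 0.102). The call was lost without HFD/FGFR4 KD 3 or without HFD/FGFR4 KD 4 (adjusted p from 0.114 to 0.291 over the libraries left out). Gm43738 holds 24.6% of its 31-base words, so its counts may be split with that gene.

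*Fdft1* encodes squalene synthase, which pairs farnesyl diphosphate and so commits it to sterols (chromosome 14, from 63145150 to 63179578, minus strand). In Chow it was at 107.5, 69.1, 99.0 and 103 CPM, and with KD on that diet at 81.0, 69.9, 91.1 and 78.3 CPM. In HFD it was at 100.2, 56.4, 106 and 84.6 CPM, and in HFD/FGFR4 KD at 112, 142.5, 187 and 158.5 CPM. Every HFD/FGFR4 KD library was above all 12 libraries of the other groups. The change was 1.75-fold (log2 change 0.80, SE 0.190, adjusted p = 0.0937). The call was lost without HFD/FGFR4 KD 3 or without HFD/FGFR4 KD 4 (adjusted p from 0.0881 to 0.255). *Ctsb* holds 17.6% of its 31-base words and Gm6781 14.3%, so part of its counts is uncertain.

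*Sqle* encodes squalene epoxidase, an oxygen-dependent step that can limit the flow into sterols (chromosome 15, from 59315077 to 59331192, plus strand). Levels on chow were 86.0, 48.35, 46.9 and 56.6 CPM after saline and 49.8, 45.1, 51.0 and 75.5 CPM after siRNA. Levels on HFD were 46.95, 17.3, 65.8 and 48.7 CPM after saline and 89.4, 120.2, 95.95 and 91.9 CPM after siRNA. Every HFD/FGFR4 KD library was above all other libraries, Chow 1 coming closest, and HFD 2 was far below the rest of its group. The change was 2.45-fold (log2 change 1.29, SE 0.298, adjusted p = 0.0833), the largest log2 change of the 9, and it was still called without HFD 2 (log2 change 0.89). Differences between enzymes in the size of their change were not tested.

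**Figure D2:**
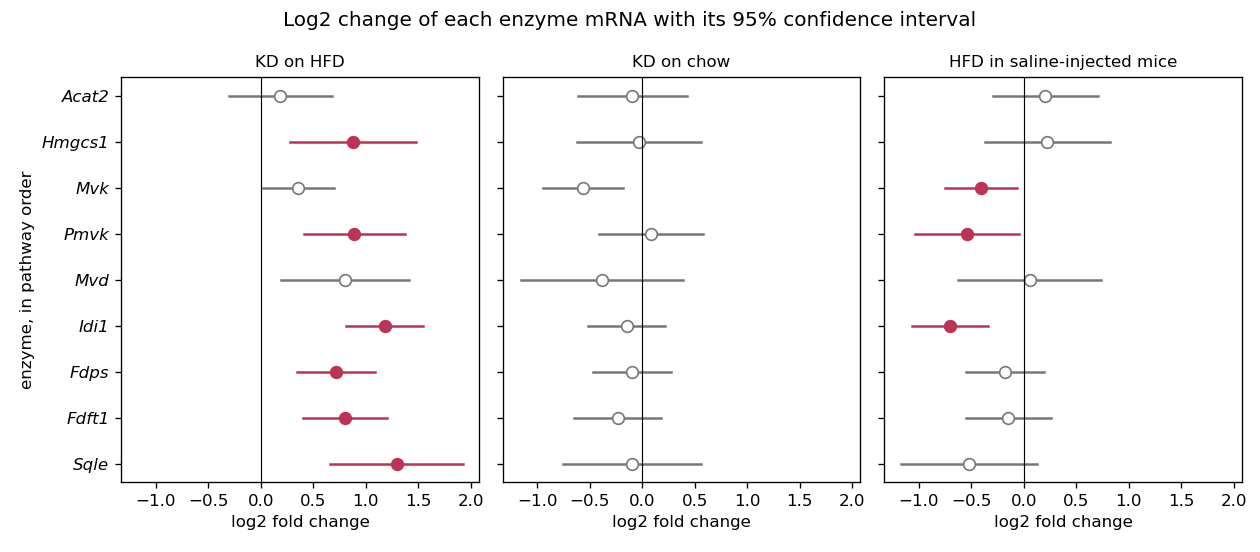
Log2 fold change of each enzyme mRNA in pathway order, from acetoacetyl-CoA thiolase at the top to squalene epoxidase at the bottom, for 3 comparisons. Points are limma-voom estimates, lines are 95% confidence intervals and filled points were called. The panels hold 6, 0 and 3 filled points from left to right.

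On chow, KD gave no call in the route. None of the 9 enzymes was called in either direction by limma-voom, by edgeR's quasi-likelihood test or by DESeq2, and 1 had an unadjusted p under 0.05. Of all genes, 0% were called higher and 0.00883% lower (1 gene). Log2 changes ran from -0.57 to 0.08 with a median of -0.10. *Mvk* was the gene with the unadjusted p under 0.05 (log2 change -0.57, SE 0.180, adjusted p = 0.976, unadjusted p 0.00598). It was the only enzyme whose Chow/FGFR4 KD libraries all lay below all Chow libraries, which held for 1.19% of all genes. For *Hmgcs1* the 95% interval of the KD effect on chow was -0.63 to 0.56, and for *Sqle* it was -0.76 to 0.56, so changes of moderate size in either direction lie inside these intervals.

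The KD effects on the 2 diets were compared directly, as the change on HFD minus the change on chow. This difference was positive for all 9 enzymes, with a median of 0.92 on the log2 scale. Only *Idi1* was called (1.33, SE 0.245, adjusted p = 0.139), and 0.0353% of all genes (4 genes) were called with a positive difference. Of the rest, 7 had an unadjusted p under 0.05 and an adjusted p over 0.25, among them *Mvk* (0.92, SE 0.241, adjusted p = 0.492) and *Fdft1* (1.04, SE 0.274, adjusted p = 0.492). DESeq2 called *Idi1*, *Fdps*, *Fdft1* and *Sqle*. Without HFD/FGFR4 KD 1, limma-voom called *Mvk* (1.065) beside *Idi1*. The *Idi1* call was lost in 8 of the 16 fits that left out a library, namely those without Chow 1 or 4, Chow/FGFR4 KD 1, 2 or 3, HFD 1, or HFD/FGFR4 KD 3 or 4, with adjusted p up to 0.460. It was also lost with scaling by library totals (adjusted p = 0.601) and with a replicate block (adjusted p = 0.253).

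HFD itself went with lower levels of 3 steps in saline-injected mice. Fitted levels were lower for 6 of the 9 enzymes and higher for 3. These 3 were *Acat2* (log2 change 0.20), *Hmgcs1* (0.22) and *Mvd* (0.06), and none of them was called. *Mvk* (log2 change -0.41, SE 0.161, adjusted p = 0.12), *Pmvk* (log2 change -0.54, SE 0.235, adjusted p = 0.155) and *Idi1* (log2 change -0.70, SE 0.173, adjusted p = 0.0176) were called lower. This was 3 of 9 enzymes where 12.7% of all genes were called lower. At an adjusted p under 0.05, *Idi1* alone was called lower, as 4.65% of all genes were. *Mvk* and *Idi1* were the enzymes whose HFD libraries all lay below the Chow libraries (7.76% of all genes). Without HFD 2, *Idi1* was still called (log2 change -0.50) and *Mvk* and *Pmvk* were not. *Mvk* was also lost without Chow 1, and *Pmvk* without Chow 1, 3 or 4 or HFD 4, and both were lost with scaling by library totals. The HFD libraries serve both here and in the comparison of KD on HFD, so these comparisons are not independent of each other.

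Among mice with KD, HFD went with higher levels of most steps. Of the 9 enzymes, 7 (all but *Acat2* and *Pmvk*) were called higher in HFD/FGFR4 KD than in Chow/FGFR4 KD, against 10.1% of all genes. *Hmgcs1* (2.20-fold, log2 change 1.14, SE 0.283, adjusted p = 0.0392) and *Fdft1* (1.85-fold, log2 change 0.89, SE 0.194, adjusted p = 0.0224) were called higher at an adjusted p under 0.05, as were 1.75% of all genes. *Mvd* had the largest log2 change (log2 change 1.24, SE 0.337, adjusted p = 0.0571). For 6 enzymes (*Hmgcs1*, *Mvd*, *Idi1*, *Fdps*, *Fdft1* and *Sqle*) every HFD/FGFR4 KD library lay above every Chow/FGFR4 KD library, which held for 5.93% of all genes. *Mvk* was lost without Chow/FGFR4 KD 4 or HFD/FGFR4 KD 3. *Acat2* was called as well in edgeR's test, in DESeq2, with scaling by library totals or upper quartiles, with library quality weights, and without Chow/FGFR4 KD 1 or HFD/FGFR4 KD 1.

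Against Chow, which differs in both diet and siRNA, HFD/FGFR4 KD had higher levels of 6 enzymes (*Hmgcs1*, *Mvd*, *Idi1*, *Fdps*, *Fdft1* and *Sqle*), where 7.53% of all genes were called higher. None passed an adjusted p under 0.05 in limma-voom. The changes ran from 0.48 for *Idi1* to 1.10 for *Hmgcs1* on the log2 scale. *Mvk* had a log2 change of -0.05 (95% interval -0.39 to 0.29). For *Fdft1* and *Sqle* every HFD/FGFR4 KD library lay above every Chow library, which held for 4.98% of all genes. Only *Hmgcs1* and *Fdft1* were called without each library in turn, and 2 to 8 enzymes were called depending on the library left out: 2 without Chow 2, HFD/FGFR4 KD 3 or HFD/FGFR4 KD 4, 3 without Chow 3 or HFD/FGFR4 KD 2, and 8 without HFD/FGFR4 KD 1.

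To compare levels between enzymes, CPM was divided by transcript length in kilobases. This assumes reads along the whole transcript, which was not tested, and the sources differ on the library method. In Chow, *Fdps* had the highest level (171 ± 30.7 CPM per kb; SD, n = 4), followed by *Hmgcs1* (89.5 ± 28.7) and *Idi1* (59.2 ± 10.1), and the SD ranges of *Hmgcs1* and *Idi1* overlapped. *Acat2* (29.9 ± 5.42), *Pmvk* (26 ± 4.27), *Fdft1* (25.6 ± 4.71) and *Sqle* (21.6 ± 6.60) did not differ beyond their spread. *Mvk* (10.2 ± 0.698) and *Mvd* (8.78 ± 2.62) were lowest and also overlapped. By group means, *Fdps*, *Hmgcs1* and *Idi1* had the top ranks in all 4 groups, and *Mvk* and *Mvd* the bottom ranks. In HFD, *Idi1* (37.2 ± 10.1 CPM per kb) and *Acat2* (34.7 ± 7.55) overlapped, with *Acat2* above *Idi1* in HFD 1 and HFD 2. In HFD/FGFR4 KD the level was 249 ± 39.6 CPM per kb for *Fdps* and 9.95 ± 1.80 CPM per kb for *Mvk*.

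**Figure D3:**
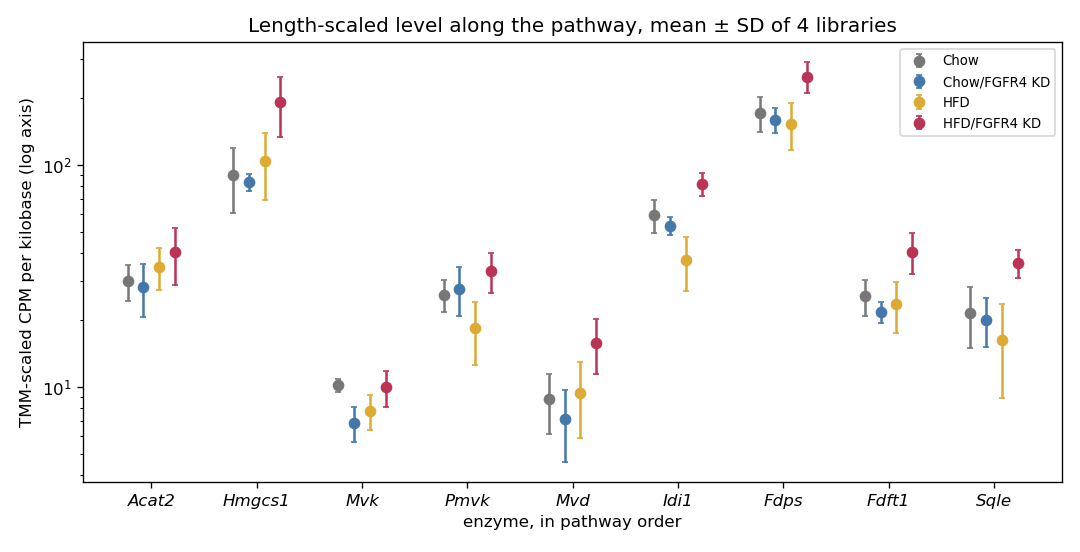
Mean level of each enzyme mRNA per kilobase of transcript (TMM-scaled CPM per kilobase, log axis), in pathway order, with SD as error bars (n = 4 per group). *Fdps*, *Hmgcs1* and *Idi1* have the highest means and *Mvk* and *Mvd* the lowest in every group, and the error bars of *Idi1* and *Acat2* overlap in HFD.

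The enzymes varied together from mouse to mouse. Across the 16 libraries, Pearson's r of log2 CPM between pairs of enzymes ran from 0.311 (*Acat2* and *Idi1*) to 0.939 (*Hmgcs1* and *Fdft1*), with a median of 0.714 over 36 pairs. After the group means were removed, r ran from 0.349 to 0.929 with a median of 0.706, so the pairs also varied together among mice treated alike. The points of such a correlation share their library, its depth and its scaling, and it is given as a description. *Fdft1* (r = 0.971) and *Fdps* (r = 0.960) followed the mean of the 9 most closely, though both are part of it, and *Acat2* (r = 0.747) and *Mvk* (r = 0.756) least. In HFD 2 all 9 enzymes were the lowest of the HFD group, with a mean deviation of -0.92 on the log2 scale from their means over all libraries, the lowest of the 16. In HFD/FGFR4 KD 1 all 9 were the lowest of that group, with a mean deviation of 0.09, against 0.62, 0.78 and 0.58 in HFD/FGFR4 KD 2 to 4. Chow 2 (-0.40, lowest of its group for 7 enzymes) and Chow/FGFR4 KD 2 (-0.44, lowest for 4) were also low. Leaving out HFD 2 gave 5 calls for KD on HFD (all of the 6 but *Hmgcs1*) and smaller log2 changes for all 9 enzymes, for example 0.97 for *Idi1*. Leaving out HFD/FGFR4 KD 1 gave the same 6 calls.

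**Figure D4:**
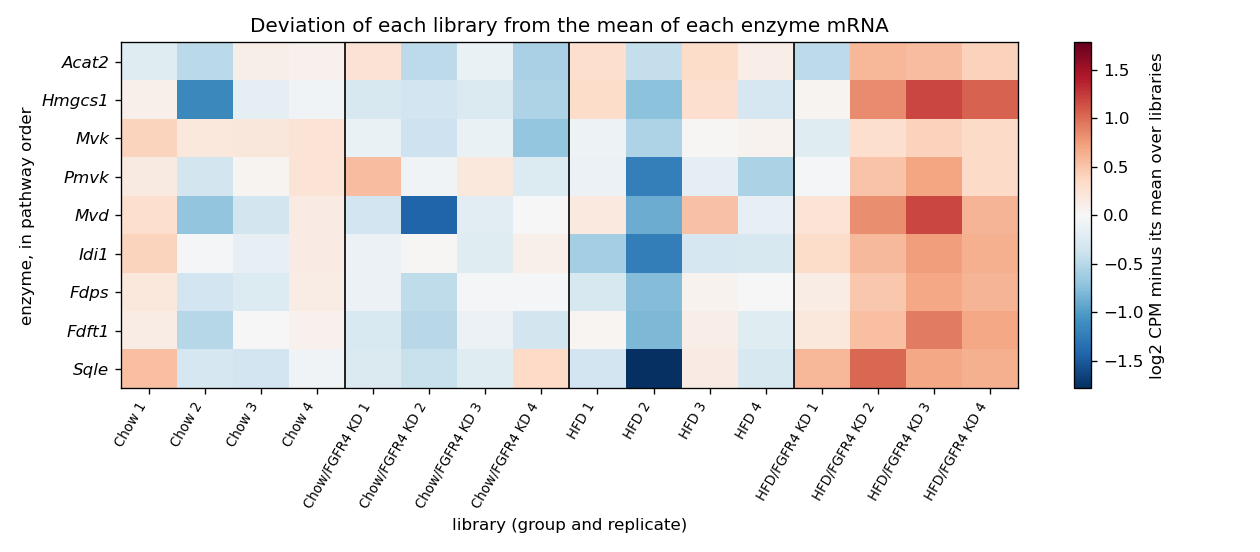
Log2 CPM of each enzyme mRNA (rows, in pathway order) in each library (columns) minus its mean over the 16 libraries, red for higher and blue for lower. HFD/FGFR4 KD 2 to 4 are above the mean in all 9 rows, HFD 2 is below it in all 9, and HFD/FGFR4 KD 1 is paler than the rest of its group.

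Among the 8 genes outside the set whose log2 CPM followed the standardised mean of the 9 most closely over the 16 libraries were *Dhcr7* (r = 0.962), *Rdh11* (0.931), *Srebf2* (0.904), *Lss* (0.897), *Insig1* (0.889), *Msmo1* (0.883) and *Acsl3* (0.852). *Dhcr7*, *Lss* and *Msmo1* are later enzymes of the same pathway, and *Srebf2* and *Insig1* encode SREBP2 and a protein that retains it in the endoplasmic reticulum. *Rdh11* encodes a retinol dehydrogenase and *Acsl3* an enzyme that activates long-chain fatty acids. With group means removed, r was 0.971 for *Dhcr7* and 0.712 for *Msmo1*, the highest and the lowest of these 8.

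The other genes of the pathway were taken from lists. For KD on HFD, 11 enzymes after squalene epoxide had a median log2 change of 0.67. Of the 11, 8 were called higher, against 1.50% of all genes, and none lower. The smallest p belonged to *Tm7sf2*, a sterol reductase (0.75, SE 0.0763, adjusted p = 9.06e-05), and to *Nsdhl*, which acts in removing the methyl groups of lanosterol (0.85, SE 0.130, adjusted p = 0.00994). The study had named both from these libraries. *Tm7sf2* was also the enzyme of this list called in the difference between the KD effects (0.91, SE 0.109, adjusted p = 0.00254). In saline-injected mice, HFD went with 4 calls lower, led by *Tm7sf2* (-0.58, SE 0.0768, adjusted p = 0.000578) and *Cyp51* (-0.63, SE 0.161, adjusted p = 0.0211), and with 1 higher. Of all genes, 12.7% were called lower there, and the share called higher is not given here. Under KD, HFD went with 8 calls higher, led by *Msmo1* (1.01) and *Nsdhl* (0.60), where 10.1% of all genes were called higher.

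For KD on HFD, 10 genes around SREBP2 and its control had a median log2 change of 0.27. Against 1.50% of all genes, 2 of the 10 were called higher. *Srebf2* was one of these (0.53, SE 0.143, adjusted p = 0.160). Under KD, *Srebf2* was also called higher with HFD (0.48, SE 0.148, adjusted p = 0.0856). *Scap*, the escort of SREBP2, was called lower with HFD in saline-injected mice (-0.33, SE 0.0893, adjusted p = 0.0281).

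Of 11 genes that draw farnesyl diphosphate or other isoprenoids into side branches, limma-voom called none for KD on HFD, and none had an unadjusted p under 0.05. Their median log2 change was -0.07, with 0.42 as the highest value, for *Rce1*, a protease of prenylated proteins. *Rce1* was called lower with HFD in saline-injected mice (-0.72, SE 0.261, adjusted p = 0.0939), and *Fnta*, a prenyltransferase subunit, under KD (-0.30, SE 0.133, adjusted p = 0.210). Neither the difference between this list and the 9 enzymes nor that of any other list was tested.

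Relatives of these enzymes, most of them in ketone body metabolism, were read beside them. Of 5 tested, limma-voom called none for KD on HFD, and 3 had an unadjusted p under 0.05, all with lower values. One was *Aacs*, which activates acetoacetate (-0.77, SE 0.278, adjusted p = 0.303). With HFD in saline-injected mice, 4 of the 5 were called higher, among them *Acat1*, the mitochondrial thiolase (0.50, SE 0.139, adjusted p = 0.0317), and *Aacs* (0.78, SE 0.280, adjusted p = 0.0889). *Acat3* had a log2 change of -0.08 there (SE 0.0914, adjusted p = 0.623). The share of all genes called higher in that comparison is not given here, while 12.7% were called lower. *Cyp7a1*, which turns cholesterol towards bile acids, had 34.7, 41.5, 29.8 and 58.95 CPM in HFD and 207, 183, 172 and 332.5 CPM in HFD/FGFR4 KD. Its groups did not overlap (log2 change 2.45, SE 0.326, adjusted p = 0.00276). HFD/FGFR4 KD 1, the lowest of its own group for all 9 enzymes, had the second highest *Cyp7a1* level.

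Genes of the daily clock moved in the same comparisons, and the hour of collection is not given in the sources used here. They were read in 2 lists, named here by a member, *Arntl* or *Per2*. Of 4 genes in the *Arntl* list, 3 were called higher for KD on HFD (*Arntl*, *Clock* and *Nfil3*), where 1.50% of all genes were. The summed level of this list was 43.3 to 68.8 CPM in HFD and 81.2 to 127 CPM in HFD/FGFR4 KD. Of 7 tested genes in the *Per2* list, 2 were called lower (*Per2* and *Dbp*). With HFD in saline-injected mice, 4 of 4 genes of the *Arntl* list were called lower and 6 of 7 of the *Per2* list higher. Of all genes, 12.7% were called lower in that comparison, and the share called higher is not given here. With HFD under KD, 4 of 4 genes of the *Arntl* list were called lower and 7 of 7 of the *Per2* list higher. Of all genes, 10.1% were called higher there, and the share called lower is not given here. For KD on chow, limma-voom called none of either list, with 0 genes of the *Arntl* list and 1 of the *Per2* list at an unadjusted p under 0.05. The part of the clock genes in the results for the 9 enzymes was not tested.

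Markers of other cells were read in the same comparisons. Of 5 hepatocyte markers, 4 had a higher fitted level for KD on HFD and 1 a lower one. Only the lower one was called, and 3 of the 5 had an unadjusted p under 0.05. With HFD in saline-injected mice, 3 were called lower. The summed level of the 5 was 54500 to 67410 CPM in HFD and 54810 to 72900 CPM in HFD/FGFR4 KD. Of 6 Kupffer cell and macrophage markers, all 6 were called higher with HFD in saline-injected mice, with sums of 35.9 to 45.1 CPM in Chow and 66.2 to 124 CPM in HFD. For KD on HFD limma-voom called none of these 6, with 1 at an unadjusted p under 0.05 and sums of 52.5 to 98.4 CPM in HFD/FGFR4 KD. The adipocyte marker *Lep* was at 0 in every library, and the single adipocyte marker tested, *Cfd*, was called lower for KD on HFD and higher with HFD. The adipocyte markers *Adipoq* and *Plin1* were too low to be tested. *Adipoq* had a mean of 0.051 CPM in Chow, 0.038 CPM in HFD and 0.041 CPM in HFD/FGFR4 KD. *Plin1* had 0.119, 0 and 0.065 CPM in these groups. In Chow/FGFR4 KD the means were 0.351 CPM for *Adipoq* and 0.208 CPM for *Plin1*. Outside Chow/FGFR4 KD no library had more than 1 count of either gene, too few to compare their means between groups. Stellate cell, endothelial, cholangiocyte, erythroid and lymphocyte markers gave no call for KD on HFD in limma-voom, with none at an unadjusted p under 0.05. With HFD in saline-injected mice, 2 of 5 stellate, 2 of 5 endothelial, 2 of 3 erythroid and 1 of 1 lymphocyte markers tested were called higher, and 1 of 3 erythroid markers lower. Calls were common in that comparison (12.7% of all genes were called lower), and the share of all genes called higher is not given here. The counts of markers called with HFD are therefore not read as results about the markers. Of 8 genes of the feeding state, 0 were called for KD on HFD (1 at an unadjusted p under 0.05) and 2 higher and 4 lower with HFD. Of 6 acute phase genes, 0 were called for KD on HFD (none at an unadjusted p under 0.05) and 1 higher with HFD. With HFD under KD, 1 of 6 macrophage, 1 of 5 stellate and 1 of 5 endothelial markers and *Cfd* were called higher, and 1 of 5 hepatocyte, 1 of 3 erythroid and 1 of 1 cholangiocyte markers lower. In that comparison 1 feeding-state gene was called higher and 3 lower, and limma-voom called no lymphocyte marker or acute phase gene, with none at an unadjusted p under 0.05. For KD on chow limma-voom called none of these markers, feeding-state or acute phase genes, and 1 of them, a feeding-state gene, had an unadjusted p under 0.05. The summed level of the acute phase genes was 1640 to 12170 CPM in Chow/FGFR4 KD, with a median of 2243 CPM, and 1643 to 2605 CPM in Chow. The highest sum was that of Chow/FGFR4 KD 4, a library that was the lowest of its group for 4 enzymes and the highest for 3. The part of these markers in the results was not tested.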

How the data were processed

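Liver RNA of 16 mice was sequenced after KAPA mRNA HyperPrep library preparation per the labels. The study's methods name HTG EdgeSeq instead, and which of them made these libraries was not settled. This bears on CPM per kilobase and on shared sequence, which assume reads along whole transcripts. The deposited table holds expected counts, which the authors made by trimming with fastp, pseudoalignment with kallisto (GRCm38 in the submitters' processing notes) and summing transcripts to 52143 genes. Versions were not given in the sources used here, and between 7.85% and 11.1% of a library's values were not whole numbers.

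A gene was tested if no more than 4 libraries had it under 1 CPM, as held for 11324 genes. TMM factors came from edgeR 4.0.16, and the counts were fitted with limma-voom (limma 3.58.1, R 4.3.3) with a mean for each of 4 groups over all 16 libraries. Benjamini-Hochberg adjustment was over all genes tested. Log2 CPM for correlations and components used a prior count of 2. The labels do not say more of the 4 samples of a group than that they are separate samples. Pairs within a group differed by more than sampling noise (chi-square over its degrees of freedom, 7.59 to 72.6). Total counts limit counting error only.

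Named are all 9 enzymes, the 2 genes with the smallest p in each direction from each pathway list where called, the relatives of the enzymes, *Fgfr4*, *Cyp7a1* and the 8 genes most like the 9. Clock genes, *Adipoq*, *Plin1*, *Cfd* and *Lep* were named after their values were seen. Some genes that this rule names are not reported here. The members and lists were chosen with earlier results of these data known. Shared sequence is the share of 31-base words in the transcripts of a gene that other genes' transcripts hold too. The results were recomputed with DESeq2 1.42.0 on rounded counts and edgeR's quasi-likelihood test, with other filters and scalings, with library weights, a block for replicate numbers or an adjusted p under 0.05, on the compared groups alone, and without each library. Python 3.11.15 was used for sequences and figures.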

Additional observations from a re-analysis of the deposited data

Results flagged for a closer look

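The KD effect on *Idi1* differed between the diets: the log2 change on HFD minus that on chow was 1.33 (SE 0.245, limma-voom adjusted p = 0.139), from a change of 1.18 on HFD and -0.15 on chow. All 4 HFD/FGFR4 KD libraries were above all 4 HFD libraries, while the chow groups overlapped. Over the other settings the adjusted p ran from 0.00067 with DESeq2 to 0.601 with scaling by library totals, and over the 16 libraries left out from 0.0589 to 0.460. Dixon's test, made for each enzyme on its own, flagged no library in the 36 combinations of enzyme and group. With 4 libraries it flags only a gap that fills most of the range of the group. It therefore cannot show that no library stood apart. HFD 2 and HFD/FGFR4 KD 1 were each the lowest of their group in all 9 enzymes.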

How the results depend on the processing

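At an adjusted p under 0.05 in limma-voom, the number of enzymes called was 1 for KD on HFD, 1 for HFD in saline-injected mice, 2 for HFD under KD, 0 for HFD/FGFR4 KD against Chow (6 at an unadjusted p under 0.05) and 0 for the difference between the KD effects (8 at an unadjusted p under 0.05). For KD on HFD, library quality weights gave 8 calls, adding *Mvk* and *Mvd*, and no filter and only the groups compared gave 5 each, without *Hmgcs1*. Scaling by library totals gave 2 calls for KD on HFD, 1 for HFD in saline-injected mice and 0 for the difference between the KD effects. DESeq2 gave 4 calls for that difference, with no adjusted p for *Mvk* and *Mvd*. A replicate block gave 0 there (*Idi1* 1.33, adjusted p = 0.253) and changed none of the other counts of enzymes called. The labels do not say whether the replicate numbers pair the mice. Same-numbered libraries had correlations of their deviations from -0.291 to 0.239, which cannot settle this. Leaving out each library gave 2 to 6 calls for KD on HFD, 1 to 4 for HFD in saline-injected mice, 2 to 8 for HFD/FGFR4 KD against Chow and 0 to 2 for the difference between the KD effects. No test of that difference was made with only the groups compared, since it uses all of them.

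Library totals moved the median log2 change of all genes to 0.29 for HFD in saline-injected mice and 0.20 for HFD/FGFR4 KD against Chow. In the former they turned *Fdps* to 0.10 and *Fdft1* to 0.13, which is -0.19 and -0.15 relative to that median. In the latter they turned *Mvk* to 0.13 (-0.07 relative to the median), and quality weights turned it to 0.0010. For KD on chow they turned *Hmgcs1* to 0.011. None of these was called. Small changes also turned direction when a library was left out. For KD on chow the log2 change ran from -0.27 to 0.019 for *Acat2*, -0.31 to 0.10 for *Hmgcs1*, -0.088 to 0.19 for *Pmvk*, -0.18 to 0.0054 for *Fdps* and -0.25 to 0.10 for *Sqle*. For HFD in saline-injected mice it ran from -0.055 to 0.43 for *Hmgcs1*, -0.15 to 0.32 for *Mvd* and -0.29 to 0.047 for *Fdft1*. For *Mvk* in HFD/FGFR4 KD against Chow it ran from -0.13 to 0.090. The cause of these shifts was not tested. With 4 mice a group and as few as 27 counts for *Mvd*, small changes are not resolved.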
